A study of Mus musculus with 37 samples.

Results

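Chromatin accessibility was compared between nuclei of somatostatin (SST) interneurons and the nuclei left unbound when these were pulled out of the nucleus accumbens of saline-treated mice. The members are 6 of the 37 libraries of the series, chosen by their labels: 3 libraries of GFP-tagged nuclei captured with an anti-GFP antibody (IP, labelled SST+) and 3 libraries of the unbound fraction (UF, labelled SST- UF). All 6 share a genotype, Sst-IRES-Cre x INTACT as a compound heterozygote (the Cre allele is Ssttm2.1(cre)Zjh, and the INTACT reporter carries CAG-Sun1/sfGFP in the Rosa26 locus), an age range of 60 to 210 postnatal days, saline as treatment and 5 mM sodium butyrate, an inhibitor of histone deacetylases, in the nuclear isolation buffers. Cre is driven by the Sst gene and the tag is a nuclear envelope protein, Sun1, fused to GFP, so any cell that has used the Sst gene at some point in its life can carry it. Both accumbens samples of 1 mouse went into a library. Whether an IP and a UF library with the same number come from 1 mouse is not stated. In bulk nuclei, a larger share of nuclei of a type and a wider opening in each nucleus cannot be told apart.

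SST interneurons are sparse GABA-releasing cells of the striatum. They arise from the medial ganglionic eminence under the transcription factors Nkx2-1 and Lhx6, most of them also make neuropeptide Y, and they contact the dendrites of spiny projection neurons, the principal cells of this tissue. In ATAC-seq the transposase Tn5 cuts DNA that is free of packed nucleosomes, at active promoters and, away from genes, at enhancers. Counts of reads in regions of 200 bp on mouse build mm10 were the starting point, and for each protein-coding gene the counts of all regions within the gene or 2 kb on either side were added up. Levels are given as CPM, the count scaled to the library's total and corrected by TMM, changes as log2 of IP over UF with a standard error (SE), and "called" means an adjusted p under 0.05 (edgeR quasi-likelihood F test, Benjamini-Hochberg over all regions or all genes tested).

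The promoters of marker genes held some of the clearest contrasts between the fractions, and 6 of them are printed for that reason (RefSeq sequence of GRCm38.p6, 250 bases before to 50 after an annotated start, 5′ to 3′ on the gene's strand, where a region called in either direction overlapped the window). The windows of Sst and Lhx6 lie inside the gene bounds used for the gene sums, which reach 23891342 and 36105992. Sst and Npy, which encode the neuropeptides somatostatin and neuropeptide Y, and Lhx6 stand for the captured cells. Olig2, which sets the oligodendrocyte fate, Ermn, a cytoskeletal protein of myelinating cells, and Cx3cr1, the fractalkine receptor of microglia, stand for oligodendrocytes and microglia. Capitals mark the cAMP response element TGACGTCA in Sst, the GC box GGGCGG (or its complement CCGCCC) in Npy and Olig2, the E-box CAGCTG in Lhx6, the SOX motif ACAATGG in Ermn, and the E-boxes CAGCTG and CAGATG in Cx3cr1.
Sst, chr16:23890795-23891094, minus strand: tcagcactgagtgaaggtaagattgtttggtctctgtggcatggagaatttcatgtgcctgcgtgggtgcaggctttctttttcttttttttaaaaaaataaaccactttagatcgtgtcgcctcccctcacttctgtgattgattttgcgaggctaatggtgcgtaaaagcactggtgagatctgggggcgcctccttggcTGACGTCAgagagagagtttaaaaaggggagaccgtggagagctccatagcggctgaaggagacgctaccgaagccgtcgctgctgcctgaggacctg
Npy, chr6:49822460-49822759, plus strand: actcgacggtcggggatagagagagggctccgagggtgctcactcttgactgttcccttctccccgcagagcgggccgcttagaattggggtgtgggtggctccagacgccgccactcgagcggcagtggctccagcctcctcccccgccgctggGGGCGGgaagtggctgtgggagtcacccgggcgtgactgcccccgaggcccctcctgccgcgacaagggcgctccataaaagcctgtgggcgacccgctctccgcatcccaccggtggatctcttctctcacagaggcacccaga
Lhx6, chr2:36105359-36105658, minus strand: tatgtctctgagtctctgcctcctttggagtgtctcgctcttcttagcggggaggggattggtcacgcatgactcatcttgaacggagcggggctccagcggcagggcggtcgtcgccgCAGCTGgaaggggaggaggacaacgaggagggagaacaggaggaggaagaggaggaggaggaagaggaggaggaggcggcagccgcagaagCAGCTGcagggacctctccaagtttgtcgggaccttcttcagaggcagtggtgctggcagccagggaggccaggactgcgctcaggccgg
Olig2, chr16:91225300-91225599, plus strand: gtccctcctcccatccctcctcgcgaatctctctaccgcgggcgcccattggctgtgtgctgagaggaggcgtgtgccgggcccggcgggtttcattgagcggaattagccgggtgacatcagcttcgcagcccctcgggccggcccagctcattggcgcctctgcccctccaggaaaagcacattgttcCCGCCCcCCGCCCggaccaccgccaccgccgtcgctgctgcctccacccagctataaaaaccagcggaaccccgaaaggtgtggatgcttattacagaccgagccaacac
Ermn, chr2:58052815-58053114, minus strand: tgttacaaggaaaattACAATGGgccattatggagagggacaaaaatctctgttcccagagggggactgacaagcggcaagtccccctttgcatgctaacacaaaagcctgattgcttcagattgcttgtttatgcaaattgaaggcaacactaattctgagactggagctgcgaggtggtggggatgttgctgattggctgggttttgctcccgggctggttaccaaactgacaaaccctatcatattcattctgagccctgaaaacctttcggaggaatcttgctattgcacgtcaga
Cx3cr1, chr9:120068247-120068546, minus strand: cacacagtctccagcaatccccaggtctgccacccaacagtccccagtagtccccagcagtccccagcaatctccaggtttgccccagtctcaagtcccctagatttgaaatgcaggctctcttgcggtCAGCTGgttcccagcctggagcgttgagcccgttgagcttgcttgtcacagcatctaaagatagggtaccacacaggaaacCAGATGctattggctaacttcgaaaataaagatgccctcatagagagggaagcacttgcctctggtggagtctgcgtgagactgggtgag

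The region over the Sst promoter had 16.3, 10.5 and 11.3 CPM in IP, against 1.01, 1.68 and 1.25 CPM in UF. At the Npy promoter the values were 11, 8.70 and 11.1 CPM in IP and 2.36, 2.84 and 2.15 CPM in UF (log2 fold change 2.08 ± 0.23 SE, adjusted p = 9.7e-12), and at the Lhx6 promoter 7.52, 8.10 and 6.44 CPM in IP and 1.35, 1.89 and 1.43 CPM in UF (2.23 ± 0.27, adjusted p = 1.3e-10). All IP libraries lay above all UF libraries at these 3 promoters. The promoters of these oligodendrocyte and microglia genes were low in IP. No astrocyte promoter is shown, and of 11 astrocyte genes 3 were called higher and 4 lower. Olig2 had 0.892, 1.05 and 0.109 CPM in IP, against 14.4, 20.3 and 12.5 CPM in UF (-4.59 ± 0.32, adjusted p = 2.1e-19). Ermn had 1.40, 1.05 and 2.18 CPM in IP and 15.6, 19.8 and 14.8 CPM in UF (-3.38 ± 0.25, adjusted p = 1.1e-19), and Cx3cr1 had 0.382, 0.450 and 0.218 CPM in IP and 3.21, 4.10 and 3.58 CPM in UF (-3.37 ± 0.45, adjusted p = 2.0e-09). The separation was complete at these 3 promoters as well, with UF on top.

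The letters of these and other motifs were searched on both strands in all 21238 promoter windows of 300 bases. TGACGTCA lies in 2.24% of all windows, 3.83% of the 1410 windows over a region called higher and 3.28% of the 4636 windows over a region called lower. Windows whose region was tested and not called hold it in 3.47%. GGGCGG lies in 46.2% of all windows, 62.4% of the higher and 70.6% of the lower ones, beside 65.6% of windows whose region was tested and not called. The ETS motif CCGGAAGT, which is not marked above, was found in 5.15% of all windows, 5.74% of the higher and 9.64% of the lower ones. Those not called had it in 7.60%. CAGCTG was at 15.6%, 16.4% and 14.1%, CAGATG at 14.6%, 11.9% and 9.86%, and ACAATGG at 2.92%, 1.21% and 1.94%, in the same order. In windows not called CAGCTG was at 15.7%, CAGATG at 11.3% and ACAATGG at 1.68%. Windows with no tested region had a median GC content of 49.3%, whereas those called higher, called lower and not called were at 62%, 62.7% and 61.7%, so open promoters as a whole differ from the average window in base composition.

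Differences between the fractions spanned much of the accessible genome. By region, 42819 of 177788 were called higher in IP (24.1%) and 40412 lower (22.7%). By gene, 4877 of 16883 were called higher (28.9%) and 4960 lower (29.4%). In 10706 genes (63.4%) every IP library lay on one side of every UF library. The changes of most genes were small. Only 575 genes (3.41%) were called with a log2 fold change over 1 and 956 (5.66%) with one under -1, while the median SE was 0.12 per gene and 0.30 per region. The libraries held 7786565, 6573702 and 9401185 counts in IP and 11802288, 9384109 and 11378284 counts in UF, and 1 IP library exceeded 1 UF library (exact permutation p = 0.2, two-sided; 3 against 3 cannot go below 0.1, so this design cannot reach 0.05). The log2 CPM of regions correlated at 0.888 to 0.916 between IP libraries and at 0.938 to 0.945 between UF libraries, across regions, which are not independent. Shares called in a gene group are read below against the 28.9% and 29.4% of all genes.

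Sst was among the 15 called genes with the highest fold changes, an average log2 CPM of at least 3 and no overlap between fractions. The highest was Chil3, which encodes a secreted chitinase-like protein known from macrophages. It had 16.4, 19.5 and 21.4 CPM in IP, against 0.487, 0.368 and 0.695 CPM in UF (5.14 ± 0.27, adjusted p = 4.4e-10). Its near-identical neighbour Chil4 had 15.9, 18.0 and 20.7 CPM in IP and 1.07, 0.982 and 0.893 CPM in UF (4.19 ± 0.24). Each rested on 1 region, and since reads can be shared between such copies the split between them is uncertain. The same holds for Sprr2a1, Sprr2a2 and Sprr2a3 (2.72 to 3.32), neighbouring genes of small proline-rich proteins of the skin barrier.

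Several of the other genes at the top are known from sensory, epithelial or endocrine cells. Pde6c, the phosphodiesterase of cone photoreceptors, had 22.8, 18.7 and 19.4 CPM in IP and 0.973, 2.70 and 2.18 CPM in UF (3.41 ± 0.25), with 3 of 3 regions called higher. Lrit3, a leucine-rich membrane protein of retinal synapses, had 20.6, 24.3 and 23 CPM in IP and 2.82, 3.07 and 3.28 CPM in UF (2.88 ± 0.18). Frk, a tyrosine kinase related to Src, had the most regions behind it: all 9 were called higher, and the gene had 47.0, 41.6 and 59.6 CPM in IP against 7.98, 7.24 and 7.55 CPM in UF (2.70 ± 0.16, adjusted p = 9.0e-10). G6pc2, the glucose-6-phosphatase of pancreatic islets, had 23.5, 13.0 and 20.4 CPM in IP and 4.09, 3.19 and 3.18 CPM in UF (2.45 ± 0.23). Smlr1 (2.73 ± 0.17), Csnka2ip (3.09 ± 0.20), Plac8l1 (2.82 ± 0.19), Wdr64 (2.39 ± 0.15) and Gstm2, a glutathione transferase (2.33 ± 0.21), complete the 15. A gene entered this set only if no IP library overlapped a UF library, so that separation is part of the choice.

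**Figure D1:**
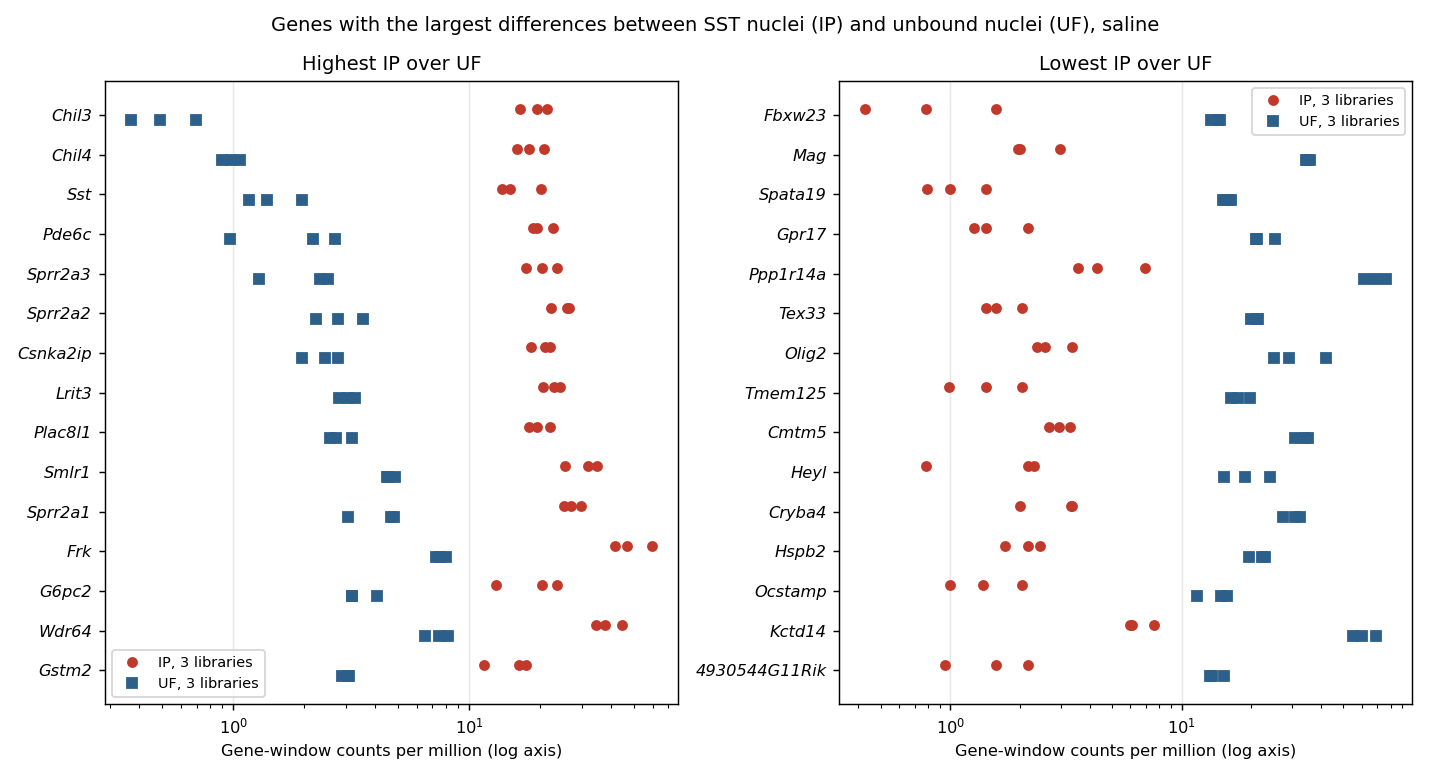
Level in CPM of the 15 genes at either end of the IP over UF fold changes, on a log axis, with 1 point for each of the 3 IP libraries (circles) and 3 UF libraries (squares). Circles and squares do not overlap in any row because genes were chosen so. On the left are, among others, Chil3 (16.4 to 21.4 CPM in IP, 0.368 to 0.695 CPM in UF) and Frk (41.6 to 59.6 CPM in IP, 7.24 to 7.98 CPM in UF).

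The 15 lowest genes included several of oligodendrocytes. Mag, the myelin-associated glycoprotein, had 2.99, 1.97 and 2.00 CPM in IP and 34.5, 36.0 and 35 CPM in UF (-3.90 ± 0.19). Ppp1r14a, an inhibitor of protein phosphatase 1, had 6.93, 3.55 and 4.29 CPM in IP, against 68.9, 76.8 and 61.6 CPM in UF (-3.79 ± 0.18), with 5 of 5 regions called lower. Olig2 had 2.36, 3.35 and 2.57 CPM in IP and 29.2, 42.1 and 25.1 CPM in UF (-3.55 ± 0.24). Kctd14, with 4 of 4 regions called lower, had 5.99, 6.12 and 7.57 CPM in IP and 55.1, 69.1 and 60.3 CPM in UF (-3.21 ± 0.15, adjusted p = 1.8e-10). Cmtm5 (-3.47 ± 0.18) is read from regions that also belong to its neighbour Il25. Gpr17, a receptor of oligodendrocyte precursors (-3.82 ± 0.23), Heyl, a transcriptional repressor downstream of Notch (-3.47 ± 0.29), Hspb2, a small heat shock protein (-3.35 ± 0.21), Cryba4, a crystallin of the lens (-3.41 ± 0.20), and Ocstamp, a membrane protein of osteoclasts (-3.24 ± 0.27), were also among them.

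Spata19 (-3.84 ± 0.25) and Tex33 (-3.61 ± 0.22), both named for expression in testis, 4930544G11Rik (-3.19 ± 0.26), Fbxw23 (-3.99 ± 0.30) and Tmem125 (-3.54 ± 0.24) close the list. Fbxw23 and Tmem125 rest on few regions near the gene: with 10 kb in place of 2 kb on each side their fold changes were 0.17 (adjusted p = 0.373) and 0.20 (adjusted p = 0.131).

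Transcription factors as a whole were called about as often as all genes. Of 334 factors tested, 81 (24.3%) were called higher in IP and 109 (32.6%) lower, beside 28.9% and 29.4% of all genes, with a median of -0.10. The highest was Tfap2d, an AP-2 factor, with 11, 9.67 and 11 CPM in IP and 1.85, 1.60 and 1.59 CPM in UF (2.64 ± 0.24, adjusted p = 1.0e-07). Lhx6 had 26.8, 30.6 and 29.0 CPM in IP and 5.26, 6.14 and 7.15 CPM in UF (2.22 ± 0.16), and all 3 of its regions were called higher. Tbx15, a T-box factor of the developing skeleton and muscle, had 26.3, 35.5 and 38.7 CPM in IP and 7.59, 7.24 and 6.85 CPM in UF (2.21 ± 0.17), with 4 regions called higher and 1 lower. Lhx8, which acts in cholinergic neurons of the same embryonic origin, was at 1.92 ± 0.39 from 1 region with 2.36 to 4.57 CPM in IP and 0.736 to 0.973 CPM in UF. Pax8 (1.72 ± 0.36), Tbx22 (1.26 ± 0.23), Nkx1-2 (1.25 ± 0.30), Ascl2 (1.22 ± 0.18), Sp9, a factor of ganglionic eminence neurons (1.19 ± 0.15), and Nr5a2 (1.15 ± 0.15) followed.

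Of the factors called lower, Olig2, Sox10 and Nkx6-2 are known regulators of oligodendrocytes. Sox10 had 2.36, 3.75 and 2.71 CPM in IP and 27.2, 27.2 and 24.8 CPM in UF (-3.18 ± 0.19), and Nkx6-2 was at -2.77 ± 0.22. Nfix, a nuclear factor I protein of neural progenitors and glia, combined a large change with many regions: 21 of 23 were called lower, and the gene had 35.8, 33.1 and 28.9 CPM in IP and 148, 160 and 145 CPM in UF (-2.21 ± 0.11, adjusted p = 1.8e-10). Regions within 1 kb of its ends alone gave -0.39 (adjusted p = 0.355). Sp7, a factor of bone-forming cells, had 5.99, 6.51 and 4.14 CPM in IP and 38.3, 44.3 and 39.2 CPM in UF (-2.89 ± 0.17), with 4 of 4 regions called lower. Gsx1 (-3.06 ± 0.45), Foxr1 (-2.83 ± 0.57), Tbx19 (-2.51 ± 0.39) and Ppara (-2.49 ± 0.39) each rested on 1 region, and Tbx19 and Ppara lost their calls with 10 kb on each side (-0.10, adjusted p = 0.643, and -0.09, adjusted p = 0.495).

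Receptors for neuropeptides were the family with the highest median. Of 34 tested, 25 (73.5%) were called higher in IP and 1 (2.94%) lower, with a median log2 fold change of 0.67, whereas all genes had a median of -0.01. Galr1, a galanin receptor, had 40.0, 45.4 and 47.6 CPM in IP and 13.2, 15.5 and 11.4 CPM in UF (1.74 ± 0.14, adjusted p = 3.4e-08), with 7 of 7 regions called higher. Mc4r, the melanocortin receptor that acts in the control of feeding, had 39.9, 52.9 and 56.7 CPM in IP and 16.7, 15.1 and 13.3 CPM in UF (1.73 ± 0.15). The IP libraries lay above all UF libraries for both. Vipr1, a receptor for vasoactive intestinal peptide, was the one called lower (-0.44 ± 0.12, adjusted p = 0.00442; -0.48 and not called, adjusted p = 0.0782, from regions that fall to 1 gene only).

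Serotonin receptors had 9 of 14 members called higher and none lower, with a median of 0.45. Htr7 had 79.3, 91.9 and 88.4 CPM in IP and 38.4, 32.9 and 29.7 CPM in UF (1.36 ± 0.12), and Htr5a had 56.3, 64.5 and 57.1 CPM in IP and 28.7, 27.1 and 25.6 CPM in UF (1.12 ± 0.11). Of acetylcholine receptor subunits 10 of 20 were called higher and 4 lower, led by the muscarinic receptor Chrm2 with 118, 127 and 142 CPM in IP and 55.1, 54.6 and 48.6 CPM in UF (1.29 ± 0.10). Of adrenergic and dopamine receptors 7 of 14 were higher and 1 lower. Drd5, the D5 dopamine receptor, was at 1.41 ± 0.21. Drd4 was at -0.92 ± 0.31 (adjusted p = 0.0179), a call that was lost without IP library 2 (-0.61, adjusted p = 0.0975) or UF library 2 (-0.81, adjusted p = 0.0647).

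Families of ion channels varied. HCN, TRP and CNG channels had 18 of 29 members called higher and 4 lower. Trpa1, a channel opened by irritants, had 14.7, 20.5 and 19.4 CPM in IP and 4.87, 3.93 and 3.97 CPM in UF (2.08 ± 0.19), and Cngb3, a cone photoreceptor channel subunit, was at 1.03 ± 0.12, while the pacemaker channel Hcn2 was lower (-1.06 ± 0.15; -0.10, adjusted p = 0.594, from gene ends alone) and so was Trpm1 (-0.80 ± 0.10). GABA-A receptor subunits had 11 of 18 higher, among them Gabrq (1.07 ± 0.21) and Gabrg1 (0.88 ± 0.09), and 2 lower, Gabrr2 (-0.93 ± 0.16) and Gabrd, the extrasynaptic delta subunit (-0.72 ± 0.13). Voltage-gated potassium channels had 18 of 40 higher and 5 lower, with Kcnc2, a fast delayed rectifier, at 0.94 ± 0.11. In most others the share called higher was nearer to the 28.9% of all genes. Of 14 voltage-gated sodium channel genes 4 were higher (28.6%), but none was lower, against 29.4% of all genes. Of 25 voltage-gated calcium channel genes 8 were higher (32.0%) and 4 lower (16.0%), with a median of 0.03. Of 10 calcium-activated potassium channel genes 4 were higher (40.0%) and 3 lower (30.0%). Of 9 AMPA and kainate receptor subunits 4 were higher and 3 lower, of 35 SNARE and active zone genes 13 were higher and 6 lower (median 0.09), and of 8 metabotropic glutamate receptors 4 were higher and none lower.

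Among 58 synaptic adhesion genes 32 were called higher and 8 lower, with a median of 0.31. Cbln4, a secreted synapse organiser of the cerebellin family, had 58.0, 70.0 and 63.4 CPM in IP and 27.1, 27.6 and 21.7 CPM in UF (1.32 ± 0.12, adjusted p = 1.8e-07), with 5 of 5 regions called higher. Cntnap4, a contactin-associated protein of interneuron synapses, had 125, 132 and 123 CPM in IP and 71.0, 60.7 and 59.1 CPM in UF (0.99 ± 0.10), with 14 of 26 regions higher and none lower. Cadm4, an adhesion molecule of myelinating cells, was lower (-0.93 ± 0.14; -0.01, adjusted p = 0.967, from gene ends alone). Classical cadherins had 12 of 23 higher and 2 lower, with Cdh18 at 0.81 ± 0.10 (0.15, adjusted p = 0.560, from gene ends alone) and Cdh19 at -1.02 ± 0.21. Axon guidance genes of the Slit, Robo, netrin and Unc5 group were called in both directions, 13 of 22 higher and 7 lower, with Unc5d at 0.82 ± 0.10 and Slit2 at 0.73 ± 0.12.

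Secreted signals and the cAMP pathway added single genes with large changes. Of 28 neuropeptide genes 14 were higher and 3 lower. Besides Sst, Avp, which encodes vasopressin, was at 2.38 ± 0.48 with an uneven spread of 8.67, 3.95 and 2.00 CPM in IP and 0.584, 1.35 and 0.893 CPM in UF, and it was not called with 10 kb on each side (0.35, adjusted p = 0.184). Nmu, neuromedin U, was at -2.90 ± 0.49 and Cck, cholecystokinin, at -1.33 ± 0.39. Of 15 genes of the neurotrophin and GDNF group 7 were higher and none lower, among them the receptor Gfra2 at 0.75 ± 0.10. Of 28 phosphodiesterase and adenylyl cyclase genes 15 were higher and 5 lower. Adcy8, a calcium-stimulated cyclase, had 257, 313 and 323 CPM in IP and 143, 132 and 130 CPM in UF (1.14 ± 0.09). Pde8a, a phosphodiesterase that breaks down cAMP, had 23, 22.1 and 19.7 CPM in IP and 82.3, 89.0 and 83.8 CPM in UF (-1.98 ± 0.11, adjusted p = 9.0e-10).

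**Figure D2:**
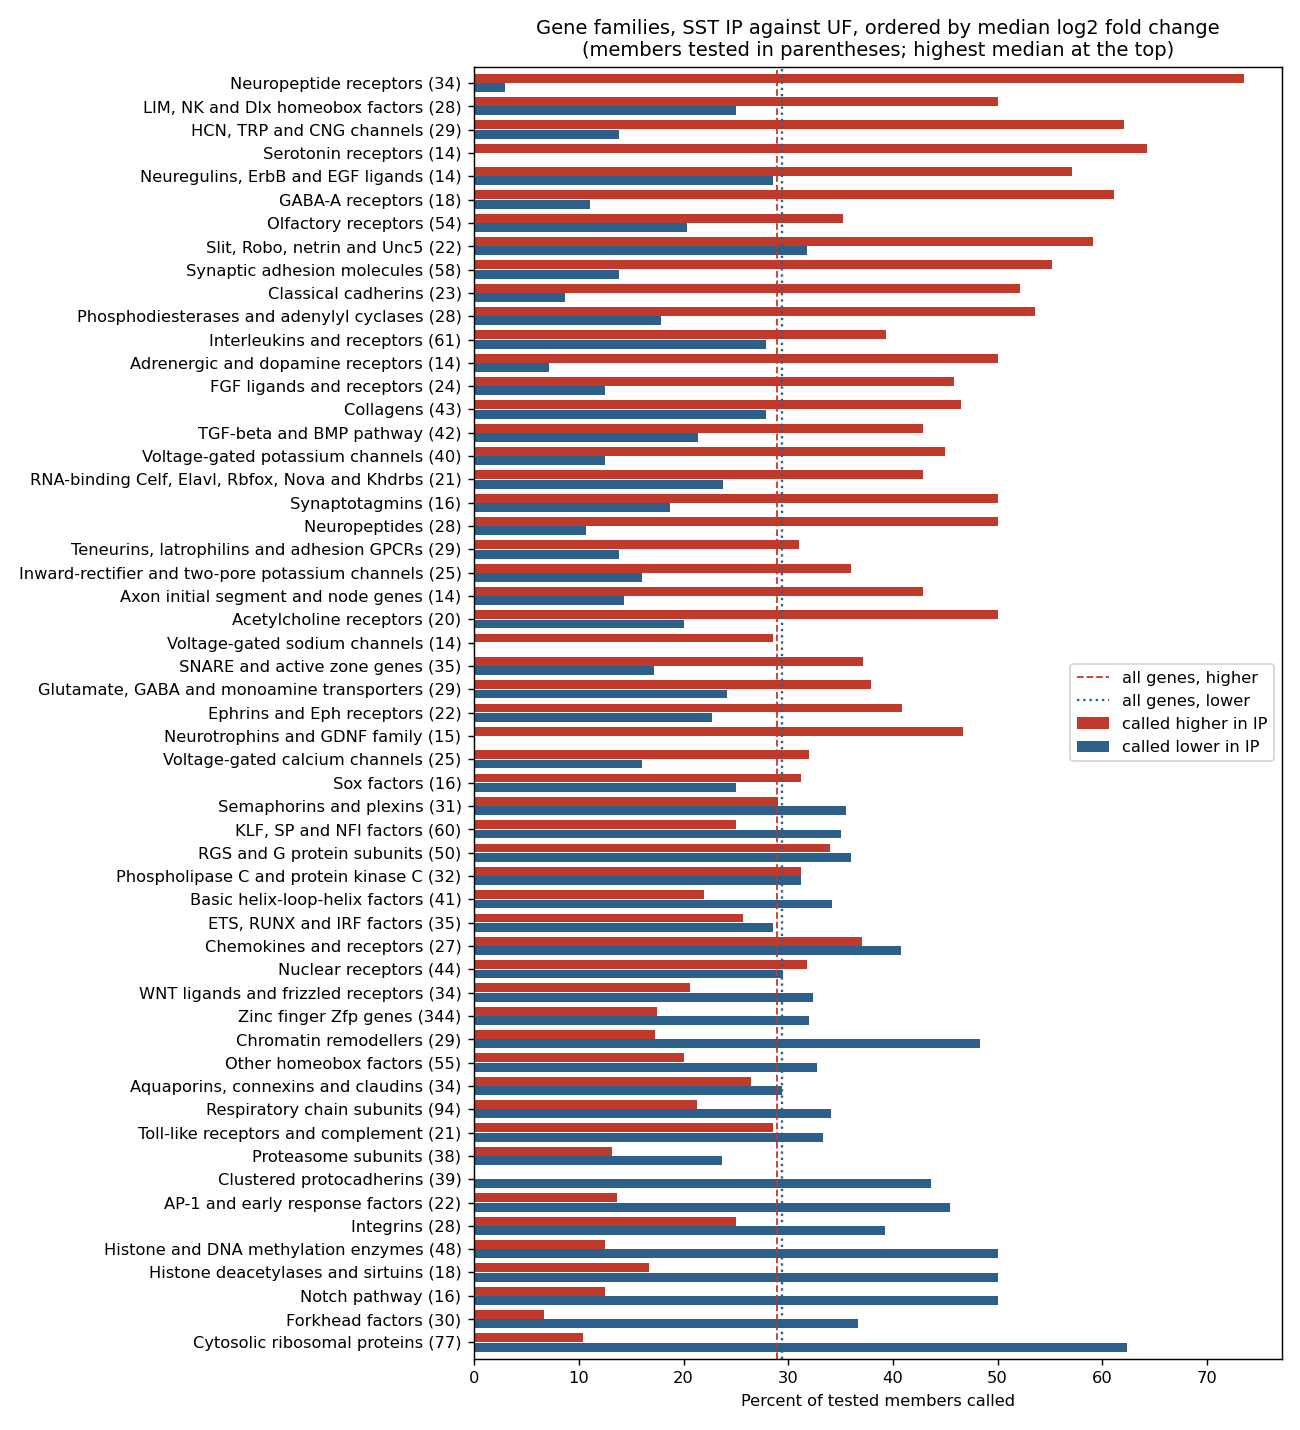
Percent of the tested members of each gene family that were called higher (upper bar) or lower (lower bar) in IP than in UF, ordered by median log2 fold change, with the dashed and dotted lines at 28.9% and 29.4%, the shares of all genes. Neuropeptide receptors stand at the top with 73.5% called higher and 2.94% lower, and cytosolic ribosomal proteins at the bottom with 10.4% higher and 62.3% lower.

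Cytosolic ribosomal proteins had the lowest median of the families. Of 77 such genes, which are short and carry an open promoter, 48 (62.3%) were called lower and 8 (10.4%) higher, with a median of -0.40. Rpl18 had 54.4, 48.7 and 41.9 CPM in IP and 91.6, 101 and 106 CPM in UF (-1.04 ± 0.11). Rpl38 was the highest member (0.53 ± 0.15, adjusted p = 0.00689), and was not called with 10 kb on each side (0.00215, adjusted p = 0.990). Other families used in every cell were nearer to all genes, with 9 of 38 proteasome subunits lower and 5 higher (median -0.14) and 32 of 94 respiratory chain subunits lower and 20 higher (median -0.14). Of 48 enzymes that add or remove methyl groups on histones or DNA 24 were lower and 6 higher, with Tet2, which oxidises methylcytosine, at 0.80 ± 0.10. Of 18 histone deacetylases and sirtuins 9 were lower and 3 higher. Hdac9 had 29 regions called higher and 10 lower of 88 (0.56 ± 0.08), and Sirt2, an abundant deacetylase of myelin, was at -1.11 ± 0.11 with 6 of 6 regions lower. Chromatin remodellers had 14 of 29 lower and 5 higher.

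The Notch pathway had 8 of 16 genes lower and 2 higher. Its median was -0.28, but -0.06 without 4 genes in the chromosome stretches described below. Notch1, one of its receptors, had 12.1, 10.9 and 12 CPM in IP and 50.9, 59.3 and 60.5 CPM in UF (-2.28 ± 0.13, adjusted p = 9.5e-10), with 9 of 10 regions called lower, and Lfng, an enzyme that modifies Notch receptors, was at -2.48 ± 0.19. Of 30 forkhead factors 11 were lower and 2 higher. Early response factors of the AP-1 group had 10 of 22 lower and 3 higher: Jun had 310, 409 and 397 CPM in IP and 255, 261 and 232 CPM in UF (0.58 ± 0.10), whereas Jund was at -0.75 ± 0.11. Of the 1106 olfactory receptor genes in the annotation only 54 had enough counts for the test, 19 of them higher and 11 lower, with Olfr344 at 4.21 ± 0.36 (8.19, 5.52 and 8.29 CPM in IP, against 0.389, 0.491 and 0.298 CPM in UF), whereas Olfr110 was at -3.92 ± 0.40. Members that passed the count filter only through the fraction in which they are open had to differ, so these shares say nothing of the untested genes.

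Markers set the labels of the fractions beside the data. Of 15 SST interneuron genes 13 were called higher, with summed levels of 1050 to 1150 CPM in IP and 654 to 720 CPM in UF, and of 14 genes of the medial ganglionic eminence lineage 11 were higher (639 to 662 CPM in IP, 464 to 499 CPM in UF). Markers of other interneurons were higher as well: 8 of 13 PV interneuron genes (1290 to 1430 CPM in IP, 810 to 876 CPM in UF; median 0.73, beside 0.68 for the SST list) and 8 of 13 genes of caudal ganglionic eminence and other interneurons (497 to 604 CPM in IP, 417 to 433 CPM in UF; median 0.37). These lists do not by themselves single out the SST class. All 13 microglia genes and all 15 oligodendrocyte genes were called lower. Microglia genes summed to 89.2 to 106 CPM in IP and 220 to 229 CPM in UF, with a median of -1.94, and oligodendrocyte genes to 399 to 442 CPM in IP and 812 to 870 CPM in UF, with a median of -1.73. Astrocyte genes overlapped between the fractions (263 to 337 CPM in IP, 284 to 294 CPM in UF; 3 of 11 higher and 4 lower). C1qb, a complement component of microglia, had 0.315, 1.38 and 0 CPM in IP and 6.42, 6.01 and 5.36 CPM in UF. Genes of spiny projection neurons were also higher in IP in part, 13 of 26 with 2 lower, at 2200 to 2330 CPM in IP and 1930 to 2030 CPM in UF. Endothelial and mural genes had 5 of 11 higher and 1 lower (182 to 200 CPM in IP, 154 to 171 CPM in UF), and ependymal genes 4 of 5 higher (171 to 183 CPM in IP, 155 to 163 CPM in UF). The part that these other cells have in the changes of single genes was not tested.

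Long genes of neurons collected many called regions, often in both directions. Such counts are to be read beside the 24.1% of all regions called higher and the 22.7% called lower. Prkg1, a cGMP-dependent protein kinase, had 43 of 67 regions called higher and none lower, with 483, 570 and 613 CPM in IP and 286, 253 and 257 CPM in UF (1.06 ± 0.09, adjusted p = 5.8e-08). Sgcd, a sarcoglycan, had 38 of 65 higher and 3 lower (1.10 ± 0.10). The most regions called higher were in Astn2, an astrotactin of neuronal migration (49 of 111, 14 lower; 0.53 ± 0.08), Ptprd, a receptor phosphatase of synapses (47 of 126; 0.67 ± 0.09), the teneurin Tenm2 (46 of 128; 0.60 ± 0.08) and Macrod2 (44 of 118; 0.56 ± 0.08). Fhit (38 of 103; 0.68 ± 0.09) and the RNA-binding protein Celf2 (37 of 82; 0.77 ± 0.08) belong to the same set. Many regions called lower were in Gse1 (39 of 83; -0.52 ± 0.08, but 0.29 with adjusted p = 0.116 from gene ends alone), Nrxn3 (38 of 135), Nav2 (36 of 84; -0.42 ± 0.08, but -0.11 with adjusted p = 0.480 from gene ends alone) and Nfia (31 of 69). The sum over Nfia was at -0.24 ± 0.09 (adjusted p = 0.0339), with IP and UF libraries overlapping, and lost its call without IP library 2 (adjusted p = 0.0854) or without UF library 1, 2 or 3 (adjusted p = 0.0993, 0.130 and 0.0604).

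Of 16881 genes with regions tested, 3595 held at least 1 region called higher and 1 called lower, 473 held 5 or more of each, and 3384 had no region called. Lsamp, an adhesion protein of limbic neurons, had 27 regions higher and 25 lower of 111, and its sum did not pass the test (0.16 ± 0.08, adjusted p = 0.0824). One of its regions averaged 6.50 CPM in IP, against 0.706 CPM in UF (3.19), and another 0.235 CPM in IP, against 4.27 CPM in UF (-4.26). Nrxn3, a neurexin, had 22 higher and 38 lower of 135 with a sum of 610, 580 and 601 CPM in IP and 595, 587 and 566 CPM in UF (0.04 ± 0.07, adjusted p = 0.684). Regions within 1 kb of its ends alone were called higher (0.54, adjusted p = 0.00637). Ctnna2 (31 higher and 27 lower of 133), Dab1, an adaptor of Reelin signalling (38 and 26 of 117), Ctnna3 (38 and 21 of 110), Elmo1 (22 and 21 of 94), Magi2 (20 and 29 of 121) and Iqschfp (34 and 20 of 111) were mixed as well. These genes were picked for such counts, which can be large only where many regions were tested. Of all regions 24.1% were called higher and 22.7% lower, and Lsamp, Ctnna2 and Elmo1 lay near these shares. The sum over such a gene hides regions called in opposite directions.

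Position relative to genes went with the direction of change. Of 10897 regions in promoter windows 12.2% were called higher in IP and 38.9% lower, with a median log2 fold change of -0.25. Of 27734 regions more than 100 kb from any protein-coding gene 40.1% were called higher and 16.1% lower, with a median of 0.38. The classes in between were ordered by distance outside genes: within 10 kb 16.8% were higher and 27.6% lower, and from 10 to 100 kb 26.8% were higher and 21.5% lower. In gene bodies the shares were close to each other, 22.2% higher and 23.1% lower. Increases over 4-fold were most frequent beyond 100 kb, with 14.5% of regions, against 7.2% at 10 to 100 kb, 4.2% in gene bodies and 0.101% in promoter windows. Decreases over 4-fold were most frequent within 10 kb outside genes (7.01%), followed by 6.05% at 10 to 100 kb, 5.39% in gene bodies, 3.93% beyond 100 kb, 2.39% in promoter windows and 2.29% near gene ends. Promoter windows took 21.7 ± 0.436% of the counts in IP and 24.4 ± 0.777% in UF, and regions over 10 kb from genes took 25.6 ± 1.40% in IP, against 21.3 ± 0.379% in UF (SD over 3 libraries in each fraction). An exact permutation test gave p = 0.1 for both, the smallest possible. These shares of the library move with the result, and their part in it was not tested.

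**Figure D3:**
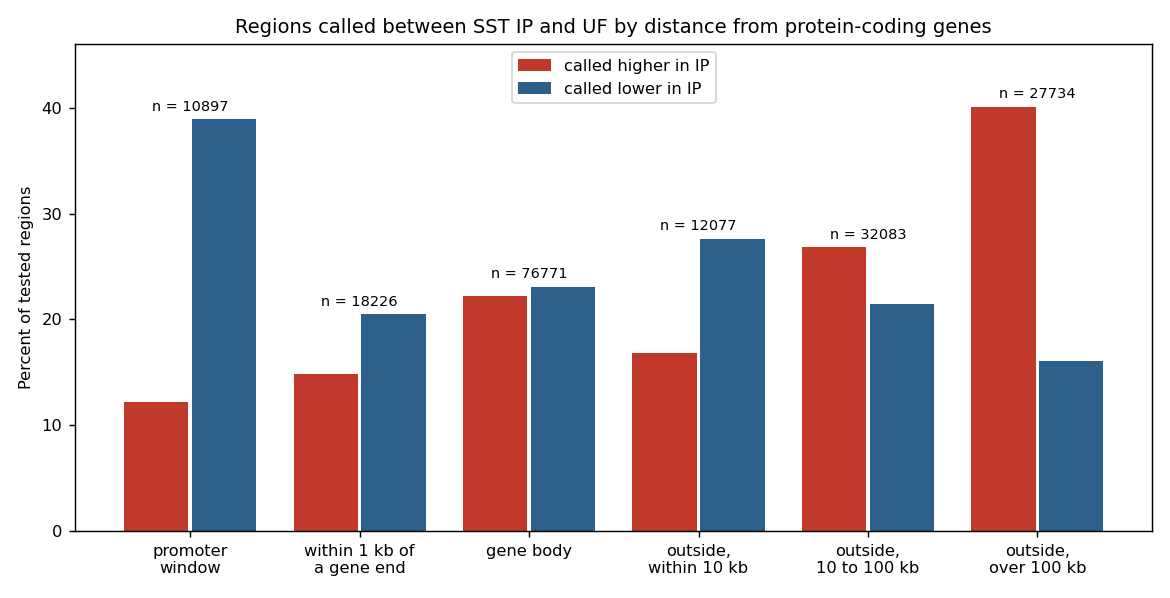
Percent of tested regions called higher (left bar of each pair) and lower (right bar) in IP than in UF, by distance from protein-coding genes, with the number of regions above each pair. The lower bar dominates in promoter windows (12.2% higher, 38.9% lower) and the higher bar beyond 100 kb (40.1% higher, 16.1% lower).

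The strongest distal regions, more than 10 kb from every gene, showed near absence in one fraction. At both ends they were chosen as the largest called changes with no overlap between fractions, so this contrast is part of the choice. The highest lies 359 kb from Cdh11, a classical cadherin. A region 645 kb from Adgrl4, an adhesion receptor of vessels (mm10 chromosome 3, 150792269 to 150792468), had 30.8, 29.7 and 31.8 CPM in IP and 0.928, 0.420 and 1.17 CPM in UF (5.14 ± 0.23, adjusted p = 1.8e-29). One 39.2 kb from Btbd3, a factor of dendrite orientation (chromosome 2, 138326589 to 138326788), had 19.9, 21.7 and 25.2 CPM in IP and 0.760, 0.420 and 0.896 CPM in UF (4.96 ± 0.26). One 73.2 kb from Slitrk6, a synaptic adhesion gene (chromosome 14, 110673891 to 110674090), had 12.2, 12.9 and 16.4 CPM in IP and 0.422, 0.526 and 0.179 CPM in UF (5.18 ± 0.31). The others lay nearest to Cyp7b1 (5.41), Il15 (5.28), Plscr5 (5.15), Pcsk5 (5.13), Lrrn1 (5.04) and Tacr3, the neurokinin B receptor (4.95). A nearest gene is a position, and no link between region and gene was measured.

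The 10 lowest distal regions were all closed in IP to under 1 CPM per library. One 35.9 kb from Ankrd46 (chromosome 15, 36441519 to 36441718) had 0.765, 0.750 and 0.218 CPM in IP and 20.3, 19 and 18.0 CPM in UF (-5.08 ± 0.29, adjusted p = 1.3e-24). One 33.7 kb from Plekhg1 (chromosome 10, 3706349 to 3706548) had 0.637, 0.150 and 0.109 CPM in IP and 11.5, 11.9 and 13.5 CPM in UF (-5.32 ± 0.36). One near Picalm (chromosome 7, 90059785 to 90059984) had 0.637, 0 and 0.109 CPM in IP and 8.86, 10.2 and 9.14 CPM in UF (-5.14 ± 0.40). The rest lay nearest to Malt1 (-5.40), Zbtb40 (-5.34), Dhx8 (-5.31), Abcb5 (-5.08), Nmbr (-5.07), Cryba4 (-5.06) and Pafah1b1 (-5.0).

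Distal regions were also counted by nearest gene, and their shares are to be read beside the 26.8% called higher at 10 to 100 kb and the 40.1% beyond 100 kb. Of 147 distal regions nearest to Adgrl2, a latrophilin, 65 were called higher and 10 lower. The cadherin Cdh8 had 52 higher and 10 lower of 96, with a median of 1.11, and Cdh9 had 41 higher and 6 lower of 74, with a median of 0.99, although the sum over Cdh9 itself did not pass the test (44.8, 68.3 and 73.7 CPM in IP, 59.0, 57.4 and 56.3 CPM in UF; 0.11 ± 0.14, adjusted p = 0.511; 0.31, adjusted p = 0.00194, without IP library 1, and -0.04, adjusted p = 0.820, without IP library 3). From regions within 1 kb of its ends alone Cdh9 was called higher (0.39, adjusted p = 0.0326). Fam135b had 40 higher and 2 lower of 69. Around Cdh11 the calls were split, 31 higher and 28 lower of 102. Around Zeb2, a regulator of interneuron fate, 31 were higher and 23 lower of 78, while the gene itself was lower (-0.57, adjusted p = 9.5e-05).

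Runs of neighbouring regions called in 1 direction marked a few loci. Crhbp, which binds corticotropin-releasing hormone, had a run of 9 regions over 12.1 kb called higher, summing to 56, 43.5 and 51.3 CPM in IP and 13.7, 16.1 and 16.2 CPM in UF. Rxfp3, a relaxin-family peptide receptor, had a run of 7 with 39.5, 50.1 and 42.8 CPM in IP and 18.2, 17.8 and 16.5 CPM in UF. On the lower side Arhgef2, an activator of RhoA bound to microtubules, had 10 regions over 11.5 kb with 29.1, 25.3 and 22.7 CPM in IP and 71.1, 75.9 and 73.8 CPM in UF, and Nrn1, neuritin, had 9 with 23.5, 25.8 and 20.0 CPM in IP and 55.7, 43.4 and 41.7 CPM in UF. Regions within 1 kb of the ends of Arhgef2 alone gave -0.07 (adjusted p = 0.888). Runs of 5 or more were 71 higher and 172 lower. The longest run called lower, 28 regions at the assembled start of chromosome 9 nearest to Alkbh8, summed to 1400, 1530 and 1270 CPM in IP and 1520, 2760 and 2020 CPM in UF, so the fractions overlapped there.

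Along the chromosomes the direction of change went with gene density. In 2334 bins of 1 Mb with 20 or more regions, the 212 bins without a protein-coding gene had a median change of 0.50, and 10.8% of them were below 0. The medians were 0.23 over 796 bins with 1 to 4 genes, 0.05 over 895 bins with 5 to 14, -0.30 over 388 bins with 15 to 39 and -0.60 over 43 bins with 40 or more genes, where 90.7% lay below 0. Across bins the median change and the number of genes correlated at -0.529 (Pearson) and -0.561 (Spearman). The bins share the same 6 libraries, and base composition was not taken into account.

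Stretches at the starts of chromosomes 7 and 17 stood below the rest of the same chromosomes. They were chosen after their values were seen. They are also denser in genes, with 576 tested genes over 27 bins, against 697 over 88 in the rest of chromosome 7. On chromosome 17 the figures were 571 over 37, against 231 over 39. The part of gene density in the contrast was not tested. In the first 50 Mb of chromosome 7, 26 of 27 bins were below 0, 59.2% of 2119 regions were called lower and 1.42% higher (median -0.77), and 447 of 576 genes were called lower and 4 higher. In the first 48 Mb of chromosome 17, 37 of 37 bins were below 0, 45.5% of 2754 regions were called lower and 4.36% higher (median -0.57), and 365 of 571 genes were lower and 18 higher. Without promoter windows the medians stayed at -0.74 and -0.54. The remainders of the same chromosomes did not show this, with 23.2% lower and 26.3% higher past 50 Mb on chromosome 7 and 23.5% lower and 19.8% higher past 48 Mb on chromosome 17. Every library followed: chromosome 17 took 2.98, 2.78 and 2.67% of counts in IP and 3.53, 3.65 and 3.67% in UF, and chromosome 7 took 4.67, 4.31 and 4.14% in IP and 5.14, 5.37 and 5.43% in UF.

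These stretches hold Mag, Ppp1r14a, Rpl18, Sirt2, Olfr110, Nav2 and Cadm4 among the genes named above, and the part of the stretch in their values was not tested. With the 1147 genes of both stretches left out, 4855 genes were called higher and 4148 lower of 15736, with a median of 0.03. Ribosomal protein genes outside them were still lower in 33 of 62 (median -0.28, 8 higher), and all 13 oligodendrocyte genes and 12 microglia genes outside them were lower. Of 344 Zfp zinc finger genes 111 lie in the stretches: 60 were called higher and 110 lower in all, but 60 higher and 50 lower outside (median 0.06). Of 16 Notch pathway genes 4 lie there, and of the 12 outside 5 were lower and 2 higher (median -0.06). In the PV libraries, over regions in both tables, the medians of the stretches were -0.05 on chromosome 7 and -0.03 on chromosome 17.

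**Figure D4:**
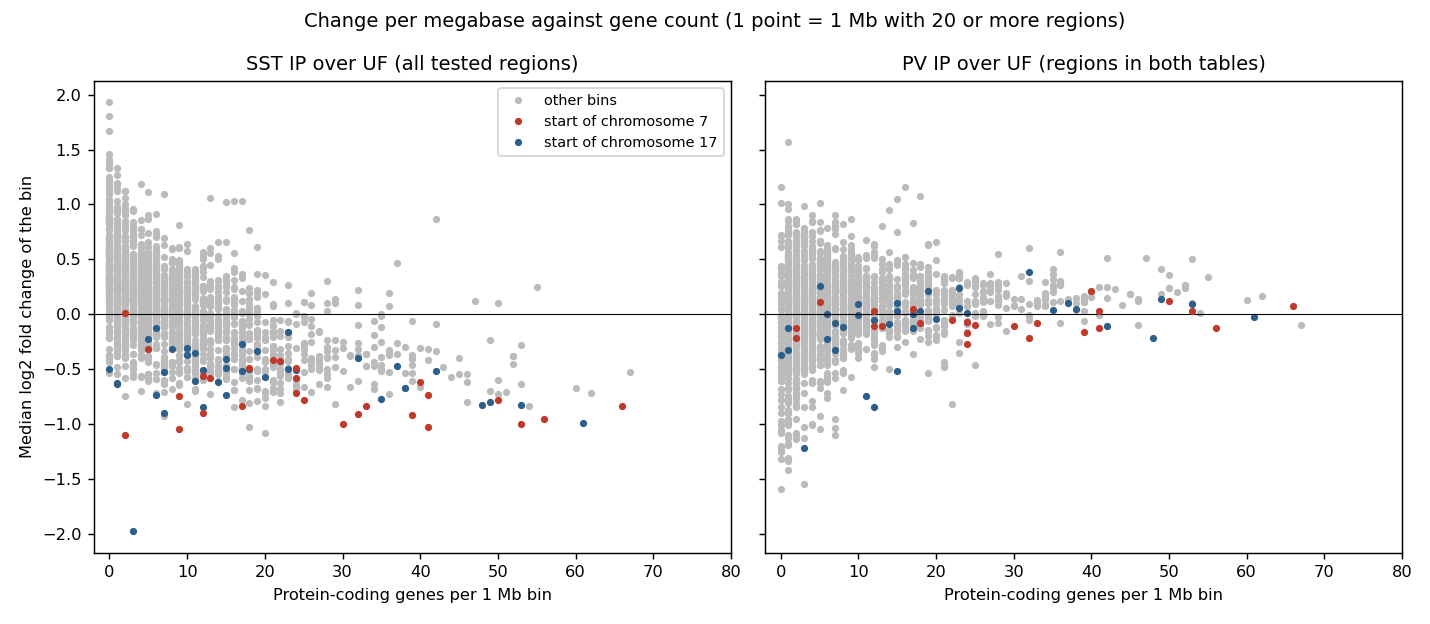
Median log2 fold change of IP over UF in each 1 Mb bin against its number of protein-coding genes, for SST (left, all tested regions) and PV (right, regions in both tables), with bins at the start of chromosomes 7 and 17 in colour. In SST the medians fall with gene number, and 26 of 27 coloured bins of chromosome 7 and 37 of 37 of chromosome 17 lie below 0.

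The change of IP over UF was set against that of parvalbumin (PV) nuclei, the other class captured in this series, as the difference between both changes over regions that overlap between their tables. The 8 PV libraries come from Pvalb-IRES-Cre x INTACT mice killed 60 min after saline (4 IP, 4 UF). Their labels give the same age range of 60 to 210 postnatal days and the same 5 mM sodium butyrate. For SST the label gives saline and no time. Of 15665 genes tested, 1592 had a higher change in SST (10.2%) and 1488 a lower one (9.5%), and of 120869 shared regions 15051 (12.5%) and 13015 (10.8%). The gene counts depend on single libraries: they were 1061 higher and 788 lower without SST IP library 3, the lower count was 866, 932 and 980 without SST IP library 2, SST UF library 3 and SST UF library 2, and the replicate block gave 2608 higher and 2580 lower. The family counts below come from the same test. Cre line and preparation differ between the classes and cannot be told apart.

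The relation to gene distance differed. In shared promoter windows 20.3% of 7659 regions had a lower change in SST than in PV and 1.93% a higher one, with medians of -0.26 in SST and 0.20 in PV. Beyond 100 kb from genes 23.9% of 16071 had a higher change in SST and 5.05% a lower one, with medians of 0.21 in SST and -0.26 in PV. Over 2035 bins of 1 Mb the median changes of SST and PV correlated at 0.228 (Pearson) and 0.257 (Spearman), as a description, since bins within a class share libraries.

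Of the strongest genes that could be compared, Smlr1 differed most. Sst, Chil3, Chil4 and Plac8l1 among the highest genes, and Cmtm5 among the lowest, had no tested value over shared regions and were not compared. Over shared regions it had 29.6, 26.2 and 37.4 CPM in SST IP and 3.41, 2.94 and 4.78 CPM in SST UF, while it had 1.43, 1.24, 1.25 and 0.471 CPM in PV IP and 6.20, 5.13, 3.46 and 5.85 CPM in PV UF (difference 5.24 ± 0.45, adjusted p = 1.2e-06). The IP libraries lay above all UF libraries in SST and below them in PV. G6pc2 had a change of 2.46 in SST and 0.12 in PV (difference 2.35 ± 0.49, adjusted p = 0.00228), and Npy 2.26 in SST and 0.55 in PV (1.70 ± 0.42, adjusted p = 0.00752). Frk (-0.12, adjusted p = 0.902), Lhx6 (0.18, adjusted p = 0.747) and Olig2 (-0.87, adjusted p = 0.127) did not pass this test. Nfix was at -2.25 in SST and -0.66 in PV (-1.57 ± 0.25, adjusted p = 3.6e-04), with 43.7, 41.9 and 35.2 CPM in SST IP, against 185, 198 and 182 CPM in SST UF, and 98.0, 144, 194 and 94.7 CPM in PV IP, against 203, 222, 194 and 223 CPM in PV UF. The SST fractions were fully apart, while the highest PV IP library reached the lowest PV UF library.

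The same test was read by family, beside the 10.2% and 9.5% of all genes. Of 34 neuropeptide receptors 9 had a higher change in SST and none a lower one, and of 14 serotonin receptors 7 and none. Galr1 was at 1.61 in SST and -0.67 in PV (difference 2.29 ± 0.35, adjusted p = 2.0e-04), Rxfp3 at 1.61 in SST and 0.25 in PV (1.38 ± 0.32, adjusted p = 0.00500) and Htr5a at 1.14 in SST and 0.19 in PV (0.96 ± 0.24, adjusted p = 0.00682). Among GABA-A subunits 5 of 18 were higher in SST and none lower, with Gabrg1 at 135, 147 and 156 CPM in SST IP, against 77.0, 77.2 and 73.8 CPM in SST UF, and 63.4, 34.7, 43.4 and 60.8 CPM in PV IP, against 73.8, 56.3, 75.9 and 71.2 CPM in PV UF (1.41 ± 0.23, adjusted p = 3.2e-04). Of 38 voltage-gated potassium channels 16 were higher in SST and 1 lower. Of 26 spiny projection neuron genes 14 were higher in SST and none lower, Pdyn, which encodes prodynorphin, among them (0.83 in SST, -0.69 in PV; 1.52 ± 0.34, adjusted p = 0.00340). Of 65 ribosomal protein genes 12 were lower in SST and none higher, and of 48 histone and DNA methylation enzymes 12 were lower and 2 higher. Of the 77 ribosomal protein genes tested in SST, 15 lie in the stretches at the starts of chromosomes 7 and 17. Over shared regions the median difference there was -0.73 on chromosome 7 and -0.51 on chromosome 17. The part of the stretches in the family counts was not tested.

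**Figure D5:**
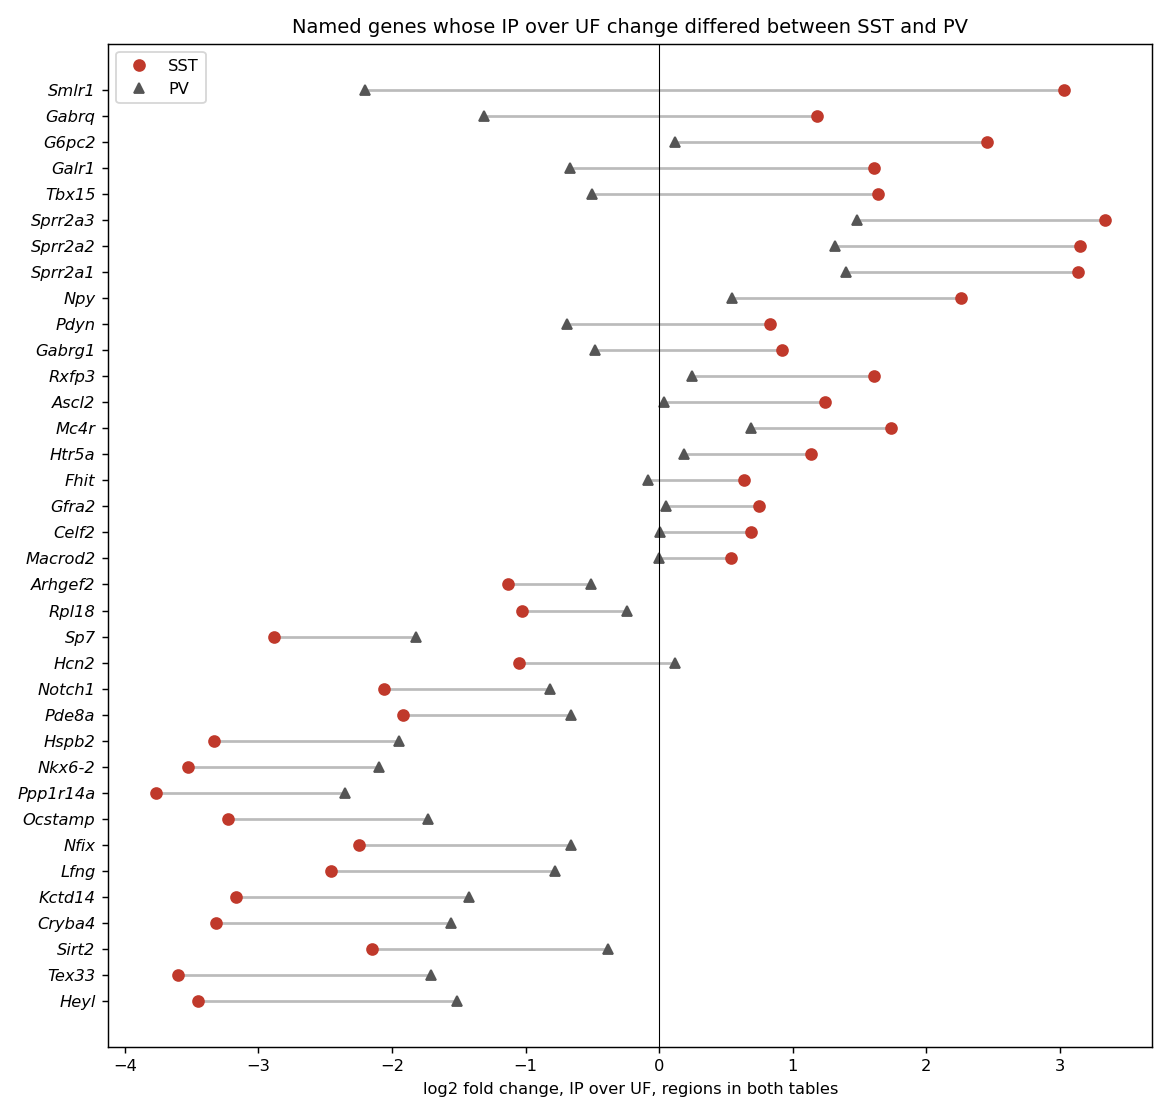
Change of IP over UF (log2, regions in both tables) in SST (circles) and PV (triangles) for the 36 named genes in which the difference between both was called, ordered by that difference. Smlr1 at the top has 3.03 in SST and -2.20 in PV, and Heyl at the bottom has -3.45 in SST and -1.51 in PV.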

How the data were processed

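Nuclei of 6 saline libraries (3 SST IP, 3 SST UF) were profiled by ATAC-seq. The authors deposited a table of whole read counts in 178637 regions of 200 bp; the PV table has 205848. Per the submitters' processing notes, the tools were Bowtie2 2.3.4.3 and MACS2 2.1.2 on build mm10, with cutadapt 1.8.3, FastQC 0.11.2, deepTools, bedtools 2.25.0, DESeq2 1.18.1 and R 3.4.4; whether reads were shifted for the Tn5 insertion or duplicates removed is not given in the sources used here.

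From these counts, regions and sums over 21887 protein-coding genes (RefSeq, GRCm38.p6; gene body with 2000 bp on each side) were tested with edgeR 4.0.16 (R 4.3.3; TMM, filterByExpr with a minimum count of 10 and total of 15, robust quasi-likelihood F test, threshold 0.05). Starts were read as counted from 0. A region in several gene windows counted for each of them (7257 regions). The SST and PV difference used 1 fit over 14 libraries and the 120870 regions that overlap by at least 100 bp. Each library comes from 1 mouse, per the labels, and whether IP and UF share mice is not stated. The scripts were tested on simulated data.

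Genes named in the text are the 15 highest and 15 lowest called genes with log2 CPM of at least 3 and no overlap, the 10 with most regions called in each direction, the 8 most mixed, the 10 highest and lowest factors and distal regions, the longest runs, and extreme or marker members of gene lists. A few genes that this rule names are not reported here. Members and lists were chosen with earlier results of these data known. Alternatives were RLE scaling, DESeq2 1.42.0, no filter, the replicate number as a block, other gene windows and leaving out each library. Sequences of distal regions were not used here.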

Additional observations from a re-analysis of the deposited data

Results flagged for a closer look

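In 36 named genes the change of IP over UF differed between SST and PV nuclei (edgeR interaction term, adjusted over 15665 genes), and each value below is the SST change minus the PV change on the log2 scale. Among the genes with the highest changes these were Smlr1 (5.24), G6pc2 (2.35), Sprr2a3 (1.85), Sprr2a2 (1.83) and Sprr2a1 (1.73). Factors with a higher change in SST were Tbx15 (2.19) and Ascl2 (1.20). Tbx15 was not called without SST IP library 3 (2.07, adjusted p = 0.0561), and Ascl2 lost its call when any 1 of 10 libraries was left out (SST IP 2 and 3, SST UF 1, 2 and 3, PV IP 4 and 5, PV UF 1, 2 and 4; adjusted p = 0.0501 to 0.113).

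Genes of peptides, receptors and channels with a higher change in SST were Gabrq (2.50), Galr1 (2.29), Npy (1.70), Pdyn (1.52), Gabrg1 (1.41), Rxfp3 (1.38), Mc4r (1.06), Htr5a (0.96) and Gfra2 (0.71). The Mc4r call was lost without SST IP library 2 or 3, SST UF library 2 or 3, or PV UF library 1 (adjusted p = 0.0531 to 0.0814). The long genes Fhit (0.72), Celf2 (0.68) and Macrod2 (0.55) belong here as well. Fhit was not called without SST IP library 3 (adjusted p = 0.0546), and Macrod2 lost its call when any 1 of 8 libraries was left out (SST IP 2 and 3, SST UF 1, 2 and 3, PV IP 2, PV UF 1 and 5; adjusted p = 0.0518 to 0.0917).

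Genes with a lower change in SST were Heyl (-1.94), Tex33 (-1.87), Sirt2 (-1.77), Cryba4 (-1.75), Kctd14 (-1.74), Lfng (-1.67), Nfix (-1.57), Ocstamp (-1.49), Ppp1r14a (-1.42), Nkx6-2 (-1.41), Hspb2 (-1.37), Pde8a (-1.26), Notch1 (-1.23), Hcn2 (-1.16), Sp7 (-1.04), Rpl18 (-0.78) and Arhgef2 (-0.61). Most of these were lower in IP in both classes, and more so in SST: Kctd14 had a change of -3.17 in SST and -1.42 in PV, and Pde8a -1.92 in SST and -0.66 in PV. Ppp1r14a, Sirt2 and Rpl18 lie in the stretch at the start of chromosome 7, where the median difference over shared regions was -0.73. The part of that stretch in their values was not tested. Heyl was not called without SST IP library 1 or SST UF library 3 (adjusted p = 0.0517 to 0.0531), Ppp1r14a not without SST IP library 2 or 3 (0.0577 to 0.0624), Sp7 not without SST IP library 3 (-0.85, adjusted p = 0.109) or SST UF library 2 (-0.98, adjusted p = 0.065), Arhgef2 not without SST IP library 3 (adjusted p = 0.0549), and Ocstamp not without SST IP library 2 or 3, SST UF library 2 or 3, or PV IP library 5 (0.058 to 0.113). Notch1 lost its call when any 1 of 12 libraries was left out (all 6 of SST, PV IP 2 and 4, PV UF 1, 2, 4 and 5) and under the replicate block (-1.10, adjusted p = 0.14). Nkx6-2 lost it when any 1 of 11 was left out (all 6 of SST, PV IP 1 and 5, PV UF 1, 2 and 4) and with all regions of each table (-0.57, adjusted p = 0.399).

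Of the distal regions described, 9 differed between the classes (adjusted over 120869 shared regions). The region nearest to Cdh11 had a higher change in SST (3.35), but its PV counts were too low for a test in PV alone. It passed the count filter of the joint fit through the SST IP libraries (29.4, 25.5 and 37.3 CPM). A difference there was thus built in, and no PV change was measured. Lower in SST were those nearest to Zbtb40 (-3.65), Plekhg1 (-3.34), Malt1 (-3.09), Ankrd46 (-2.73), Dhx8 (-2.66), Pafah1b1 (-2.39), Cryba4 (-2.24) and Picalm (-2.23). The other 9 of the 10 highest regions have no overlapping region in the PV table and could not be compared.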

How the results depend on the processing

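By region, 42992 were higher and 40218 lower with RLE size factors, 35310 and 31516 with DESeq2, and 36287 to 43167 and 33232 to 40441 with 1 library left out; by gene the ranges were 3948 to 5719 and 3966 to 5800, and regions within 1 kb of gene ends gave 3887 and 3839. Of 122 named genes 100 kept their direction and call under every alternative run, as did 20 of 20 distal regions. The distal regions were picked for the largest changes without overlap between fractions, so their stability is part of the choice. The direction turned in 8 cases, and the cause was not tested: Fbxw23 (0.17) and Tmem125 (0.2) with 10 kb on each side, Gse1 (0.29), Gm37013 (0.06) and Anks1b (0.27) from gene ends, Nrxn3 (-0.00161) from regions of 1 gene only, and Magi2 (-0.02) and Cdh9 (-0.04) without SST IP library 3, whereas without SST IP library 1 both passed the test (0.15 and 0.31). With a minimum log2 CPM of 2, 40.3% of promoter regions were lower and 43.1% of regions beyond 100 kb higher.

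For the SST and PV difference, a replicate block gave 2608 genes higher in SST and 2580 lower, and leaving out 1 library gave 1061 to 2148 and 788 to 1966. The lowest counts came without SST IP library 3 (1061 and 788); without SST IP library 2 the lower count was 866, and without SST UF libraries 3 and 2 it was 932 and 980. The replicate numbers were not shown to pair IP and UF: same-numbered libraries deviated together at r = 0.131, 0.0752 and 0.14, and different numbers at -0.113 to -0.0231, so every library correlated best with its own number, a hint from the data and not from the design. With the block, 4801 genes were higher and 4963 lower in SST IP than in UF. Of family counts and medians, 122 of 228 stayed the same under every alternative. Without the starts of chromosomes 7 and 17, an alternative chosen after seeing the data, 4855 genes were higher and 4148 lower. Depth limits single regions, whose median SE was 0.30.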

Other observations

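Regions within 2000 bp of a microRNA hairpin were looked at after the other results were seen. Around 371 hairpins, 71 of 581 tested regions were called higher in IP (12.2%) and 209 lower (36.0%), while 24.1% and 22.7% of all regions were. These shares are close to the 12.2% and 38.9% of regions in promoter windows. The position of the hairpin regions relative to genes was not taken into account. Called regions above a minimum level and without overlap between fractions were picked in each direction. Regions in promoter windows were left out of the higher set and kept in the lower one. Mature sequences from RefSeq (GRCm38.p6) are shown for Mir592, the highest of those reported here, and Mir219a-2, a known microRNA of glia among those lower. Capitals mark the seed, bases 2 to 8, and both were chosen after their values were seen. Regions near Mir7239 (-4.18), Mir6538 (-4.14) and Mir7230 (-3.73) were lower still.
mmu-miR-592-5p: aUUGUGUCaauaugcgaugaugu
mmu-miR-592-3p: uCAUCACGuggugacgcaacau
mmu-miR-219a-5p: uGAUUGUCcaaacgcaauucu

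Mir592 lies within the gene body of Grm8, a metabotropic glutamate receptor, and a region beside it (mm10 chromosome 6, 27935354 to 27935553) had 5.23, 5.85 and 7.75 CPM in IP and 0.253, 0.315 and 0.807 CPM in UF (3.74 ± 0.36, adjusted p = 3.2e-14, edgeR). Mir219a-2, a microRNA of maturing oligodendrocytes, lies beside a region (chromosome 2, 29846346 to 29846545) with 1.02, 0.450 and 0.873 CPM in IP and 8.78, 9.67 and 9.23 CPM in UF (-3.50 ± 0.31, adjusted p = 3.9e-16). Both regions were picked among those whose fractions did not overlap, so that separation is part of the choice. Mir30c-2 (1.49 ± 0.31) and Mir34b (1.42 ± 0.26) had regions called higher, and Mir100 (-2.26 ± 0.36) and Mir338 (-2.11 ± 0.30) had regions called lower. Levels of the microRNAs themselves were not measured.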
